A study of Homo sapiens with 8 samples.

Results

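The expression landscape of uninduced U937 cells was read from the 4 libraries made without doxycycline, out of 8 libraries in the series. U937 is a human monocytic line grown from a histiocytic lymphoma, and every library came from U937 SLC19A1-/- cells, in which the reduced folate carrier SLC19A1 had been disrupted. Each library also carried a doxycycline-inducible, Flag-tagged transporter, tet-SLC7A1 in 2 of the 4 libraries and tet-SLC7A2 in the other 2, and the 4 libraries left out here received 1 µg/mL doxycycline for 24 h. The 4 were chosen by their labels and not by any measured value, though earlier results of these data were known. There was no parental line and no library without a construct, so the levels describe these engineered lines and not unmodified U937. The labels do not say that libraries of a line came from separate cultures, and no test was made. Levels are in TPM, a unit that allows for gene length and adds up to the same total in every library. Genes that a file does not list count as 0. Where 4 values of a gene are given, they stand in the order tet-SLC7A1 library 1, tet-SLC7A1 library 2, tet-SLC7A2 library 1 and tet-SLC7A2 library 2. For other genes the lowest and the highest library are given. A gene at 1 TPM or more in all 4 libraries is termed expressed, and one under 1 TPM in all 4 is termed silent.

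Myeloid cells pass from progenitors through a promyelocyte stage, at which the proteins of the primary or azurophil granules are made, to neutrophils or to monocytes that leave the marrow. PU.1, encoded by SPI1, and the C/EBP family are the leading transcription factors of this path, and CD33 is an inhibitory surface receptor shared by most of its stages. Monocytes that have matured carry CD14, the co-receptor for bacterial lipopolysaccharide, and CSF1R, the receptor that keeps macrophages alive.

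The libraries held 17776137 to 18392786 expected counts, so that 3 counts, the limit which a count of 0 allows, came to 0.163 to 0.169 CPM, a count set against the sum of its own library. Of 15340 genes with a symbol in any library of the series, 9554 were expressed in the uninduced cells, and 5237, 1057 and 119 had at least 10, 100 and 1000 TPM in all 4 libraries. The counts of list members below can be set beside this share of 9554 in 15340. The bases differ, since 139 of the 772 list genes were absent from all 4 files. A single library had 9913 to 10079 genes at 1 TPM or more. Of the 9554 genes, 9428 were also at 1 TPM or more in all 4 libraries with doxycycline. Across the 9554 genes the Pearson correlation of log2(TPM + 1) between libraries ran from 0.975 to 0.994 over 6 pairs, which share one gene set. The lowest value was for tet-SLC7A1 library 1 with tet-SLC7A2 library 2. Without doxycycline the entry for the tagged SLC7A2 had 0, 0, 0.38 and 6.8 TPM, above 1 TPM in tet-SLC7A2 library 2 alone. The entry for the tagged SLC7A1 did not pass 0.18 TPM. Another construct entry, for the C-terminal Flag tag, had 23.03 TPM in tet-SLC7A1 library 1 and 0 in the other 3 libraries, a value that rests on 2 counts over an effective length of 5.39 bases and is under the floor of 3 counts. SLC19A1 kept 46.7, 43.8, 47.4 and 59 TPM, which says nothing about the knockout, as wild-type cells were not among the samples.

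Of the genes used to mark the line, SPI1, AZU1, PRTN3 and CD33 were expressed and MPO was silent. SPI1 (Entrez 6688, chromosome 11, 47354860 to 47378547 in GRCh38.p14) had 149, 146, 172 and 153 TPM, a spread of 1.18-fold. CD33 (Entrez 945, chromosome 19, 51211076 to 51240016) had 89.7, 84, 81.1 and 81.6 TPM and varied by 1.11-fold. AZU1, which encodes the antimicrobial granule protein azurocidin, had 1242, 1034, 826 and 447 TPM. PRTN3, which encodes the granule protease proteinase 3, had 1166, 1324, 1231 and 708 TPM. Both granule genes were lowest in tet-SLC7A2 library 2, while SPI1 and CD33 showed no library apart. MPO encodes myeloperoxidase, the enzyme that makes hypochlorous acid in azurophil granules, and had 0.21, 0.22, 0.47 and 0.45 TPM (Entrez 4353, chromosome 17, 58269855 to 58280935). The median of PRTN3 stood at 1199 TPM and that of MPO at 0.335 TPM, so the granule genes did not share one level. The label of a myeloid line thus fits 4 of its 5 markers.

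The most abundant transcripts were those of the translation machinery. Ribosomal protein genes held 29.4% to 39.3% of all TPM, filled 16 of the 20 highest places, and all 82 of them were expressed. RPS18, a protein of the small ribosomal subunit, led with 23724, 21262, 19099 and 15689 TPM. RPS27, of the same subunit, had 15664, 14149, 11859 and 10973 TPM. In both genes tet-SLC7A1 library 1 was highest and tet-SLC7A2 library 2 lowest. Other ribosomal genes among the 20 were RPS2, RPS29, RPS10, RPS21, RPS24, RPL13A, RPS20, RPLP2, RPL41, RPL9, RPL8 and RPL30, with medians from 9541 TPM for RPS2 to 6196 TPM for RPL30.

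The 4 genes of the top 20 outside the ribosome were FTL, CTSG, TMSB4X and GAPDH. FTL, the light chain of the iron store ferritin, had 10207, 11899, 13609 and 14236 TPM, lowest in tet-SLC7A1 library 1. CTSG, which encodes the granule protease cathepsin G, had 12185, 8889, 8597 and 6762 TPM, with the opposite order. A lineage gene therefore ranked 8 by its median among all genes, between RPS29 and RPS10. TMSB4X, thymosin beta 4, which binds actin monomers, had 5425 to 9989 TPM, and GAPDH, the glycolytic enzyme, had 6893 to 7860.1 TPM. GAPDH differed by 1.14-fold between its highest and lowest library and TMSB4X by 1.84-fold.

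TPM divides by effective length, which gives short genes a high place. The median effective length was 47.3 bases for RPS29 and 90.2 for RPS27, against 3237 for EEF1A1, the elongation factor that carries tRNA to the ribosome. By expected counts EEF1A1 led with a median of 198497, followed by FTL (116107), ENO1 (112479.5) and GAPDH (111816), and 7 of the 20 highest genes were shared by both rankings. The 100 highest entries held 42.3% to 50.6% of all TPM and 22.5% to 27.7% of all counts. MTRNR2L8 and MTRNR2L2, with medians of 6011 and 4135 TPM, are nuclear genes nearly identical to the mitochondrial 16S ribosomal RNA, so their reads cannot be assigned with confidence. No gene encoded by the mitochondrial genome was listed in any file.

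Housekeeping lists were expressed almost in full. All 20 translation factors, 19 cytoskeletal genes and 15 glycolytic genes were expressed, as were 18 of 19 genes for protein folding, redox and iron. Among the translation factors EEF1A1 led at 3299 to 4401 TPM, followed by EEF1G, a subunit of the elongation factor complex, at 2230.2 to 3115. NPM1, the nucleolar phosphoprotein, had 1656, 2133, 2065 and 2378 TPM. ACTB, beta actin, had 3644 to 5874 TPM and PFN1, profilin, 2793 to 4153, both highest in tet-SLC7A2 library 2. ENO1, enolase, had 4305 to 5362 TPM and ALDOA, aldolase, 2639.8 to 3228, both highest in tet-SLC7A1 library 2. The chaperone HSPA8 had 281, 605, 751 and 1786 TPM, a 6.35-fold spread.

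Some azurophil granule genes were the most abundant lineage genes. Of 18 genes of azurophil granules and promyelocytes, 16 were expressed, while MPO and BPI were silent. All 16 had 10 TPM or more in every library, and 13 had 100 TPM or more. The list was drawn up with earlier results of these data known and also holds lysosomal genes such as CTSD and CTSS, so these counts describe the list and not the granule alone. CTSG led by a wide margin. CST7, which encodes the protease inhibitor cystatin F, had 2526, 2570.1, 2329 and 2685 TPM and varied by 1.15-fold. ELANE, neutrophil elastase, had 1738, 1384, 1599.5 and 733 TPM, and its range overlapped those of PRTN3 and AZU1. The levels of ELANE and PRTN3 in tet-SLC7A2 library 2 were apart from the other 3 libraries.

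AZU1, PRTN3, ELANE and CFD lie side by side on chromosome 19, at 827837 to 832018, 840999 to 848175, 852303 to 856243 and 859664 to 863641 in GRCh38.p14. CFD, complement factor D, had 137, 80.4, 76.1 and 26.9 TPM, below every value of the other 3. All 4 were lowest in tet-SLC7A2 library 2. The genes on either side of the group, PLPPR3 and MED16, had 0.7 to 1.95 and 32.4 to 39.7 TPM. CTSG lies on chromosome 14 at 24573518 to 24576250 among other serine protease genes that were silent. CMA1, mast cell chymase, reached 0.36 TPM, GZMH 0.67 TPM and GZMB 0.11 TPM at most. MPO stands between LPO, lactoperoxidase, at 0.03 TPM at most, and genes outside its family. EPX, eosinophil peroxidase, was absent from all 4 files, as was TSPOAP1, the gene on the other side of MPO. MKS1, a cilium gene between EPX and LPO, had 10, 9.51, 9.8 and 9.27 TPM. The silence of the 3 peroxidase genes thus extended to some neighbours and not to others. MPO, though under 1 TPM, had 10, 10, 21 and 20 expected counts, above the floor of 3.

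Promoters are shown for the granule genes CTSG, AZU1 and PRTN3 and for CD33, to set the letters beside these levels. Of 37 pan-myeloid and granule genes, 24 had an entry in the RefSeq promoter table (GRCh38.p14), each a window of 250 bases before and 50 after the start used there. The CD33 window lies inside the span of the gene given above and not at its first base. Capitals mark GAGGAA, the core bound by PU.1, TTGCNNAA, a C/EBP motif, and CAACTG, a MYB motif, on either strand.
CTSG promoter, chr14:24576201-24576500, minus strand: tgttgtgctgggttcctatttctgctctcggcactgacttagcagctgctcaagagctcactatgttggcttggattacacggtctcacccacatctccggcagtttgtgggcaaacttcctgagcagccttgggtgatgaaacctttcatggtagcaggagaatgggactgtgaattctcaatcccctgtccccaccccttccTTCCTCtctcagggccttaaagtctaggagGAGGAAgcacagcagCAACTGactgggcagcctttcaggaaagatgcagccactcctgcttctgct
AZU1 promoter, chr19:827587-827886, plus strand: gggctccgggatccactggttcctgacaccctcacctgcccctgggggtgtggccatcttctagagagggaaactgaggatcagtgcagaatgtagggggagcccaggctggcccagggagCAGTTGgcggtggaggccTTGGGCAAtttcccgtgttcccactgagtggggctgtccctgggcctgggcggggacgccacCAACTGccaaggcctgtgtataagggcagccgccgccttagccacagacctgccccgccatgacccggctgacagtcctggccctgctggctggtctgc
PRTN3 promoter, chr19:840749-841048, plus strand: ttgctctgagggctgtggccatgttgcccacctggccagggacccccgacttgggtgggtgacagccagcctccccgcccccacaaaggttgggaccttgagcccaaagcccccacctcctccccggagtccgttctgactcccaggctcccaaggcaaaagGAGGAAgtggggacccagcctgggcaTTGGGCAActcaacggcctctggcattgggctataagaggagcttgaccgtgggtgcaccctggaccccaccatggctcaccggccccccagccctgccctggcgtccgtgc
CD33 promoter, chr19:51224830-51225129, plus strand: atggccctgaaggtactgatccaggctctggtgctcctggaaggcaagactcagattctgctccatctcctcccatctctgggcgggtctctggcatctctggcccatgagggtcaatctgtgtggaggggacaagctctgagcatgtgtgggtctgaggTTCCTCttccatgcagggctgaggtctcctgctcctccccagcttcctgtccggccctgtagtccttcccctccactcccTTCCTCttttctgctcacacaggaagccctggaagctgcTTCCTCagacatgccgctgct

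The CTSG window held 2 GAGGAA and 1 CAACTG, that of AZU1 1 TTGCNNAA and 2 CAACTG, that of PRTN3 1 GAGGAA and 1 TTGCNNAA, and that of CD33 3 GAGGAA. No match overlapped another. GAGGAA was present in 27.9% of all 35116 promoter windows and in 14 of the 29 windows of the 24 myeloid genes. TTGCNNAA was in 10.5% of all windows and 7 of the 29, and CAACTG in 11.4% and 5 of the 29. Some genes have more than 1 window, and a match is a description of the letters, not of binding. CYBA, CST3 and CEBPA, with medians of 828, 626 and 298 TPM, and CFD were among several genes with none of the 3 motifs. Silent CYBB had a GAGGAA and a CAACTG. A high level did not go with a match in every gene, nor a match with a high level. ELANE, MPO and SPI1 had no entry.

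The further granule genes followed at lower levels. RNASE2 and RNASE3, ribonucleases with antiviral and antibacterial action that are best known from eosinophils, had 471 to 821 and 307 to 568 TPM. Both were lowest in tet-SLC7A1 library 1 and highest in tet-SLC7A2 library 2, the reverse of CTSG. SRGN, serglycin, the proteoglycan that packs granule contents, had 307, 604, 508 and 717 TPM with the same low and high libraries. LYZ, lysozyme, had 167 to 275 TPM, and MS4A3, a membrane protein of granulocyte and monocyte progenitors, 109 to 119.7. CST3, cystatin C, had 844, 691, 561 and 316 TPM, highest in tet-SLC7A1 library 1. Among the lysosomal cathepsins CTSD had 1201 to 1476 TPM and CTSS 12 to 13.7. BPI, the bactericidal protein that binds lipopolysaccharide, did not pass 0.5 TPM.

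**Figure D1:**
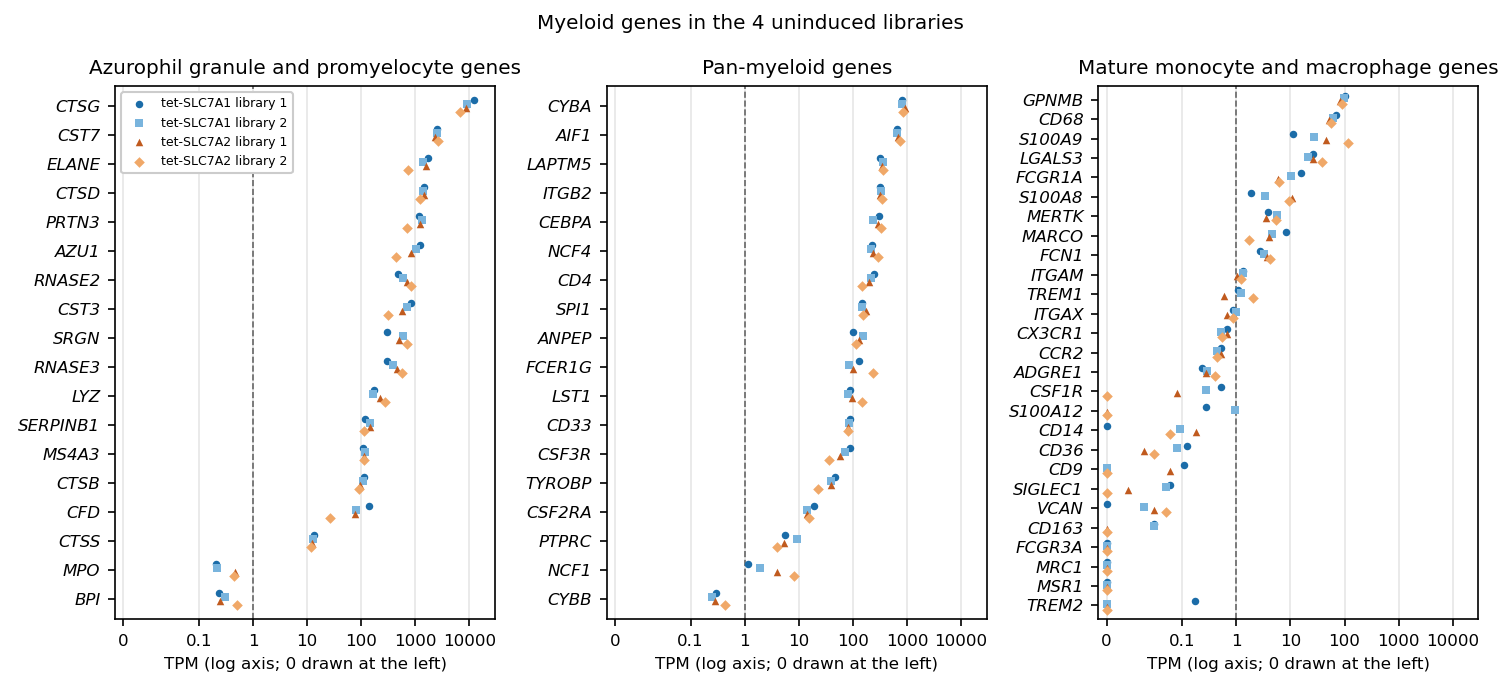
TPM of 18 azurophil granule and promyelocyte genes, 18 of 19 pan-myeloid genes and 27 of 28 mature monocyte and macrophage genes on a log axis, 1 point for each of the 4 uninduced libraries, genes ordered by median; a value of 0 is drawn at the left edge and the dashed line marks 1 TPM. MPO and BPI lie under the line at the foot of the granule genes, CYBB at the foot of the pan-myeloid genes, and 16 of the 27 mature genes drawn lie under it in all 4 libraries.

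Later granule genes were mostly silent. Of 14 genes of secondary and tertiary granules and late neutrophils, 3 were expressed, 2 passed 1 TPM in some libraries and 9 were silent, 7 of them absent from all 4 files. MMP9, the gelatinase of tertiary granules, had 2.61 to 15.3 TPM, CAMP, the cathelicidin precursor, 2.95 to 6.92, and the chemokine receptor gene CXCR2 1.87 to 3.33. LTF, lactoferrin, did not pass 0.03 TPM, and LCN2, CEACAM8, OLFM4, PGLYRP1 and ARG1 were absent. The 3 expressed genes were highest in tet-SLC7A2 library 2. As sums, the primary and later granule lists were thus far apart. The summed TPM of the first list was 22916, 19476, 18956 and 15591 and that of the second 14.2, 15.1, 13.3 and 27.4. CTSG alone gave 12185, 8889, 8597 and 6762 TPM of the first sum, which also holds lysosomal genes such as CTSD. MPO and BPI, of the first list, did not pass 0.5 TPM, so the sums do not describe every member.

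Pan-myeloid genes were expressed in 18 of 19 cases. CYBA, the small subunit of the phagocyte oxidase that makes superoxide, had 802 to 931 TPM, and NCF4, a cytosolic subunit, 218 to 291. CYBB, the catalytic subunit that pairs with CYBA, was silent at 0.29, 0.25, 0.28 and 0.43 TPM. NCF1, another cytosolic subunit, had 1.14 to 8.06 TPM, a value that is uncertain because of nearly identical pseudogenes. AIF1, an actin-binding protein of the monocyte line, had 648 to 731 TPM, ITGB2, the shared beta chain of leukocyte integrins, 313 to 349, and LAPTM5, a lysosomal protein of blood cells, 316 to 362. The adaptors FCER1G and TYROBP, which couple receptors to SYK, had 84 to 232 and 23.2 to 47.6 TPM. FCER1G was highest and TYROBP lowest in tet-SLC7A2 library 2. CD4, which human monocytic cells also carry, had 244, 213, 197 and 148 TPM.

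Mature monocyte and macrophage genes divided. Of 28, 10 were expressed, 1 passed 1 TPM in some libraries and 17 were silent. CD14 had 0 to 0.18 TPM (Entrez 929, chromosome 5, 140631732 to 140633701) and CSF1R 0 to 0.53 TPM, so both defining receptors were under 1 TPM in every library. The scavenger and mannose receptor genes MSR1 and MRC1 and the Fc receptor gene FCGR3A were absent from all 4 files, and VCAN, CD163 and CD36 did not pass 0.05, 0.03 and 0.12 TPM. GPNMB, a glycoprotein of lysosomes and late endosomes, had 81.2 to 103 TPM, CD68, a lysosomal protein, 50.7 to 68.5, and LGALS3, galectin 3, 21.2 to 38.2. FCGR1A, the high-affinity receptor for IgG, had 15.5, 10.4, 5.87 and 6.1 TPM, and both libraries of the tet-SLC7A1 line lay above both of the tet-SLC7A2 line.

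S100A8 and S100A9 form the calcium-binding heterodimer calprotectin. S100A9 had 11.2 to 118 TPM, a 10.5-fold spread, and S100A8 1.87 to 10.7 TPM. On the same stretch of chromosome 1, S100A6 had 1111 to 1293 TPM and S100A4 1442 to 1586, while S100A12 stayed at 0 to 0.94 TPM. S100A9 was highest in tet-SLC7A2 library 2 and lowest in tet-SLC7A1 library 1, with no such order in S100A4. ITGAM, the alpha chain that pairs with ITGB2 to form Mac-1, had 1.05 to 1.35 TPM, and ITGAX 0.66 to 0.98. Without either library of the tet-SLC7A2 line, left out 1 at a time, the median of S100A8 was 3.42 TPM.

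Of 18 stem and progenitor genes 5 were expressed: IGLL1, CD99, MYB, MEIS1 and FLT3. MYB, a transcription factor of dividing progenitors, had 42.1 to 82.9 TPM, and MEIS1, a HOX cofactor, 14.4 to 36.6, both lowest in tet-SLC7A1 library 1. FLT3, a receptor kinase often mutated in myeloid leukaemia, had 2.8, 3.6, 2.68 and 1.57 TPM. IGLL1, a surrogate light chain best known from B cell precursors, had 516, 588, 368 and 91.4 TPM, with tet-SLC7A2 library 2 well under the others. CD99, an adhesion protein also high in leukaemic blasts, had 349.5, 346, 356 and 338 TPM and varied by 1.05-fold. CD34 and KIT, the surface markers of early progenitors, did not pass 0.04 and 0.2 TPM, and SPINK2 and MECOM were absent.

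Genes of other blood lineages were silent in 91 of 102 cases and expressed in 11. None of 20 T cell genes was expressed, and CD3D, CD3E, CD3G, CD8A and CD8B were absent from all 4 files. Of 16 B cell and plasma cell genes, CD79A, a signalling chain of the B cell receptor, had 20.6 to 30.3 TPM, VPREB1, the other part of the surrogate light chain, 1.08 to 3, and MZB1, an endoplasmic reticulum protein, 1.02 to 2.3. MS4A1, which encodes CD20, was absent, and CD79B, the partner of CD79A, did not pass 0.2 TPM.

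Among 14 NK cell genes, NKG7, a granule membrane protein of cytotoxic cells, had 679.9, 680.4, 731 and 640.2 TPM, similar in all 4 libraries. NCAM1, the adhesion molecule CD56, had 1.35 to 2.71 TPM, and GZMA, granzyme A, 1.28 to 20.9, highest in tet-SLC7A2 library 2. PRF1, perforin, and GNLY, granulysin, did not pass 0.06 and 0.13 TPM. In the list of 15 erythroid genes, KLF1 and EPOR, the factor and receptor of red cell formation, had 3.14 to 5.67 and 2.75 to 3.25 TPM. The other 13, with GATA1 and 6 globin genes among them, were absent from all 4 files.

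No gene of 11 for megakaryocytes and platelets was expressed. TPSAB1, mast cell tryptase, was the 1 expressed gene of 13 for eosinophils, basophils and mast cells, at 704, 342, 245 and 199 TPM, highest in tet-SLC7A1 library 1. It shares most of its sequence with TPSB2, which had 0.31, 0.88, 0 and 0 TPM, so the division between the copies is uncertain. CPA3 and MS4A2, other mast cell genes, did not pass 0.08 and 0.26 TPM. Of 13 dendritic cell genes BATF3, a factor of cross-presenting cells, had 41.3 to 92.5 TPM and CD83, a maturation marker, 7.71 to 17.2, while CLEC9A, XCR1 and CD1C were absent. In bulk RNA a low level in every cell and a high level in few cells cannot be told apart.

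Genes of tissues outside the blood were silent in most cases. None of 8 endothelial, 9 neural or 11 epithelial genes was expressed. FAP, a surface protease of activated fibroblasts, was the 1 expressed gene of 10 fibroblast genes at 3.27 to 6.7 TPM, and TF, transferrin, the 1 of 10 hepatocyte and muscle genes at 1.54 to 1.86 TPM. Without tet-SLC7A1 library 1, without tet-SLC7A1 library 2 or without tet-SLC7A2 library 2, 1 epithelial gene reached the threshold instead of 0.

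Some collagen and liver genes were highest in tet-SLC7A2 library 2. COL1A1, a chain of type I collagen, had 0.51, 0.48, 1.01 and 5.47 TPM, and COL3A1 had 0.13, 0.17, 0.56 and 5.28. The third collagen gene, COL1A2, had 0.05, 0.1, 0.3 and 3.11 TPM. TTR, transthyretin, a protein secreted by the liver, had 0.89, 0.76, 2.34 and 15.6 TPM. The liver genes APOA2, APOA1 and ALB reached 3.94, 2.45 and 1.43 TPM there. In all 7 genes this library was above the other 3, and the 7 were named with these levels known. TF, given above, kept a narrow range, so the pattern did not hold for every gene of that list. Counted over all genes with a symbol, 26 were at 1 TPM or more in this library and more than 5 times as high as in any other uninduced library, against 5, 3 and 2 genes for the others in turn. Of the 26, 9 were set apart in the same way in tet-SLC7A2 library 2 with doxycycline among the libraries with doxycycline, GPR84, MMP1, KRT81 and ACTL8 among them. The collagen, transthyretin and apolipoprotein genes were not among the 9: COL1A1 had 0.69 TPM and TTR 1.84 TPM there. The source of these transcripts was not tested.

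**Figure D2:**
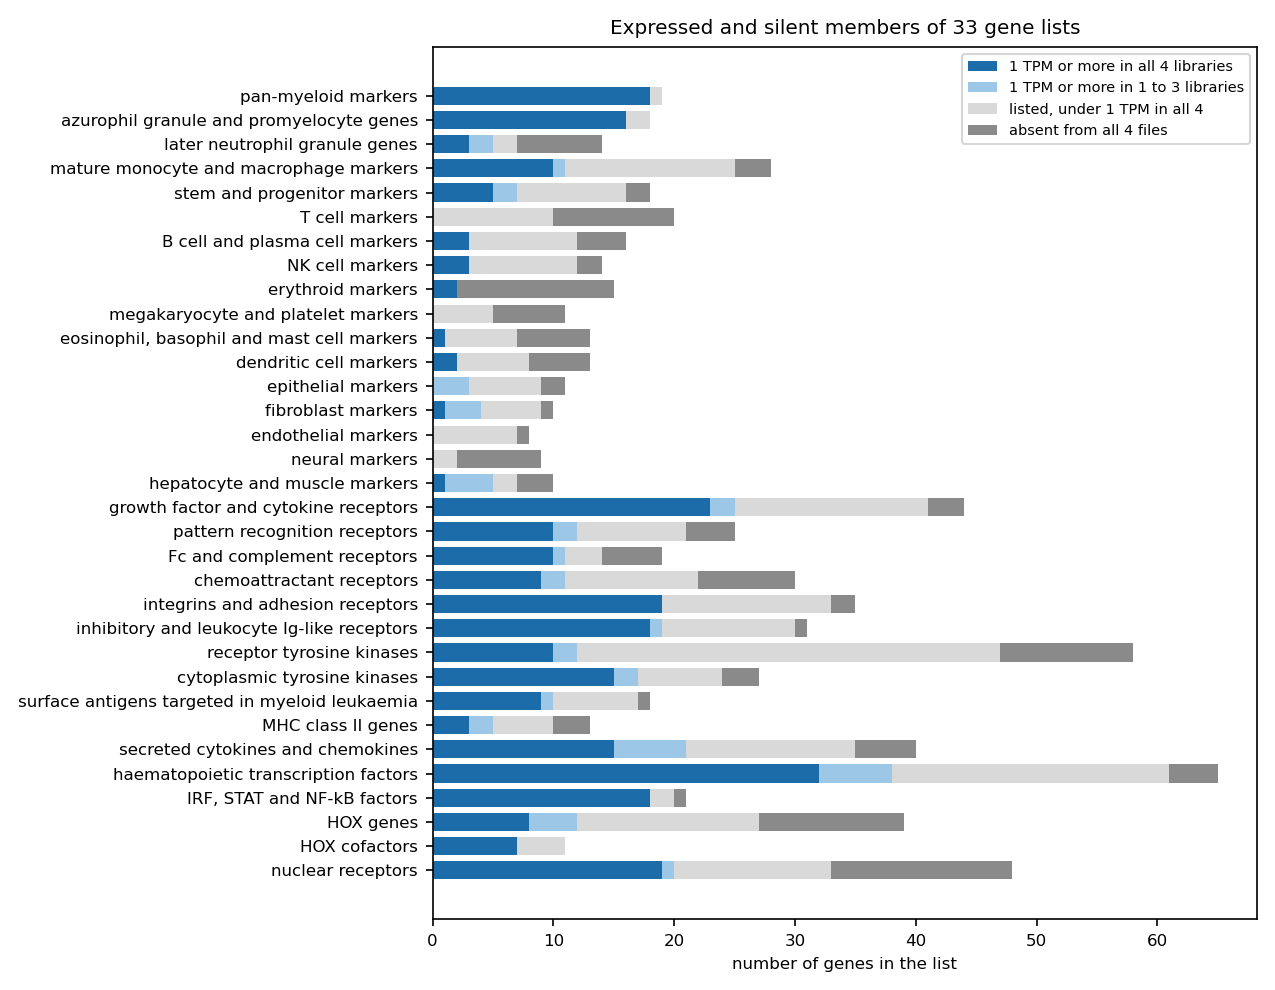
Number of genes in each of 33 lists, as stacked bars divided into genes at 1 TPM or more in all 4 uninduced libraries, in 1 to 3 of them, listed but under 1 TPM in all 4, and absent from all 4 files. Expressed genes fill 18 of 19 places in the pan-myeloid list and 16 of 18 in the granule list, against 0 of 20 for T cell genes and 10 of 58 for receptor tyrosine kinases.

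Receptors for growth factors and cytokines were expressed in 23 of 44 cases, beside 9554 of 15340 over all genes with a symbol. IL2RG, the common gamma chain, led with 281, 309, 290.1 and 297 TPM, though IL2RA and IL2RB, its partners in the IL-2 receptor, did not pass 0.03 and 0.63 TPM. IL4R, another partner of the gamma chain, had 21.8, 21, 24.1 and 30.4 TPM. The TNF receptors TNFRSF1A and TNFRSF1B had 79.9 to 100.1 and 38.6 to 51.3 TPM. CSF3R, the receptor for the neutrophil growth factor G-CSF, had 88.1, 71.5, 58.8 and 36.9 TPM, lowest in tet-SLC7A2 library 2. CSF2RA, the ligand-binding chain for GM-CSF, had 14.2 to 18.9 TPM, and its signalling partner CSF2RB 0.54 to 2.34. Interferon receptor genes were all expressed, IFNGR2 at 46.6 to 55.5 TPM and IFNAR2 at 18.6 to 25.2 TPM, as were IL10RB at 48.8 to 58.8 and IL6R at 22.7 to 31.3. IL6ST, the signalling chain that IL6R needs, did not pass 0.37 TPM.

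Pattern recognition receptors were expressed at low levels, 10 of 25, and NLRP3 alone passed 10 TPM in all 4 libraries. NLRP3, the inflammasome sensor, had 10.5 to 14.4 TPM and NOD1, a sensor of bacterial peptidoglycan, 5.37 to 9.61. Among Toll-like receptors TLR9, TLR2 and TLR4, for unmethylated DNA, lipoproteins and lipopolysaccharide, had 4.53 to 6.21, 2.17 to 3.76 and 2.42 to 2.91 TPM. LY96, which binds lipopolysaccharide with TLR4, had 2.37, 1.97, 1.99 and 2.68 TPM. TLR7 did not pass 0.01 TPM, and TLR8 and CLEC7A were absent.

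Of 19 Fc and complement receptor genes 10 were expressed. FCGRT, the receptor that recycles IgG, had 214, 166, 146 and 88.8 TPM, highest in tet-SLC7A1 library 1. FCGR2A, an activating receptor for IgG, had 15.5 to 25.3 TPM, and its inhibitory relative FCGR2B 1.11 to 5.31. FCER2, the low-affinity IgE receptor, had 8.87, 3.82, 2.02 and 1.58 TPM, a 5.61-fold spread. Of the complement regulators on the surface, CD55 and CD46 had 23.8 to 29.8 and 20.9 to 29 TPM, while CD59, which blocks the membrane attack complex, had 0.01 to 0.03 TPM.

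Chemoattractant receptors were expressed in 9 of 30 cases. CXCR4, which holds cells in the marrow through CXCL12, had 127, 226, 209.8 and 283 TPM, lowest in tet-SLC7A1 library 1. S1PR4, a receptor for sphingosine phosphate, had 30.1 to 45.5 TPM, LTB4R, for leukotriene B4, 23.2 to 40.8, and PTAFR, for platelet-activating factor, 10.7 to 16.3. FPR2, a formyl peptide receptor, had 5.6, 6.69, 6.03 and 13.1 TPM, whereas FPR1 did not pass 0.65 TPM. CCR2, the receptor that leads monocytes out of the marrow, did not pass 0.51 TPM. CCL2, the ligand of CCR2, had 10.3, 26.4, 25.4 and 157 TPM.

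Integrins and adhesion receptors were expressed in 19 of 35 cases. ITGB2 was followed by ITGA5, the alpha chain of the fibronectin receptor, at 115, 152, 158 and 161 TPM. CD44, the hyaluronan receptor, had 44.9 to 54.9 TPM and SELPLG, the ligand of P-selectin, 32 to 54.4. Of the alpha chains that pair with ITGB2, ITGAL had 23.6, 25.2, 26.4 and 26.5 TPM, more than 10 times the level of ITGAM in each library. ITGA4 and ITGB1, which together form VLA-4, had 20.9 to 33.5 and 34.7 to 52.5 TPM.

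Inhibitory and leukocyte Ig-like receptors were expressed in 18 of 31 cases. After CD33 came CLEC12A, a C-type lectin of myeloid cells, at 79.3, 71, 66 and 56.9 TPM. LILRA2, an activating member, had 45.5 to 96.5 TPM and SIRPA, the receptor for CD47, 47.8 to 93.4. LAIR1, a collagen receptor, had 57.5, 36.7, 39.6 and 42.6 TPM. SIRPA and LILRA2 were highest in tet-SLC7A2 library 2. Among surface antigens pursued as targets in myeloid leukaemia 9 of 18 were expressed. SPN, sialophorin, had 54.1 to 65.4 TPM and CD47 18.1 to 22.5, whereas IL3RA, the alpha chain of the IL-3 receptor, did not pass 0.96 TPM and LILRB4 did not pass 0.04 TPM.

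Receptor tyrosine kinases were expressed in 10 of 58 cases. EPHB4, a receptor for ephrin B2, had 24.8 to 28.6 TPM and TYRO3, a receptor for Gas6 and protein S, 16.1 to 18.5. RYK, a Wnt receptor, had 8.13 to 11.3 TPM and EPHB6, an ephrin receptor without kinase activity, 5.68 to 7.19. IGF1R, the receptor for insulin-like growth factor, had 2.99 to 5.19 TPM and MERTK, a relative of TYRO3, 3.5 to 5.58. AXL, the third member of the TYRO3 family, did not pass 0.03 TPM, and MET was absent. Cytoplasmic tyrosine kinases were expressed in 15 of 27 cases. CSK, which restrains the SRC family, had 199.7, 209, 209.9 and 224 TPM. Kinases common in myeloid cells followed. BTK had 62.2 to 69.8 TPM and SYK, which binds the adaptors above, 48.1 to 58.8. FES had 32.7 to 54.9 TPM and was lowest in tet-SLC7A2 library 2. The lymphoid kinases LCK and ZAP70 did not pass 0.07 and 0.45 TPM, and BLK was absent. JAK2 did not pass 0.36 TPM, beside JAK1 at 11.9 to 17.1 TPM and TYK2 at 24.3 to 29.4.

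MHC class II genes were expressed in 3 of 13 cases. CD74, the invariant chain that guides class II molecules, had 106, 89.5, 62.7 and 23.7 TPM, highest in tet-SLC7A1 library 1 and lowest in tet-SLC7A2 library 2. HLA-DOB had 7.13 to 10.2 TPM and HLA-DRB1 3.97 to 9.01. HLA-DRA, the chain that HLA-DRB1 needs, did not pass 0.58 TPM, and CIITA, the activator of the class, did not pass 0.69 TPM. HLA genes vary between people, and reads may fit several copies, so their levels are uncertain.

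Of 40 secreted cytokines and chemokines 15 were expressed. MIF, macrophage migration inhibitory factor, led with 2923, 3123, 3079 and 2836 TPM and varied by 1.1-fold. IL32 had 753, 1026, 1049 and 1166 TPM, lowest in tet-SLC7A1 library 1. The chemokine gene CCL5 had 214 to 252 TPM and TGFB1, a cytokine that restrains immune cells, 122 to 195. TNFSF13B, the B cell survival factor BAFF, had 40.9, 62.2, 49.8 and 53.4 TPM. IL18 had 34 to 46.6 TPM and IL1B 8.01 to 18.9, both stored as precursors until an inflammasome cuts them. TNF reached 1.29 TPM in 1 library and was under 1 TPM in the other 3. IL6, IL10 and CSF1 did not pass 0.05, 0.14 and 0.05 TPM.

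Of 65 transcription factors of blood cells 32 were expressed and 27 were silent. CEBPA, which opens the path from progenitor to granulocyte and monocyte, led with 299, 235, 298 and 339 TPM. LYL1, a helix-loop-helix factor of progenitors, had 136 to 183 TPM, MYC 156 to 171 and SPI1 146 to 172. The ranges of LYL1, MYC and SPI1 overlap, so their order is not settled. NFE2 had 41.5 to 89.5 TPM, highest in tet-SLC7A2 library 2, and GFI1, a transcriptional repressor, 44.7 to 49.4. Within the C/EBP family CEBPB had 26.4 to 58.2 TPM, CEBPG 27.3 to 34.5 and CEBPE, which serves late granulocytes, 20.6 to 30.3, while CEBPD did not pass 0.07 TPM. KLF4, a factor of monocyte differentiation, had 2.53, 0.98, 1.21 and 1.86 TPM, and MAF was absent. GATA1 was absent and GATA2 had 0.99, 0.96, 0.79 and 0.65 TPM.

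EGR1, an immediate early gene, had 19.6, 3.47, 4.9 and 1.61 TPM, a 12.2-fold spread with tet-SLC7A1 library 1 apart. EGR2 and EGR3 had 0.06 to 1.22 and 0 to 2.52 TPM, highest in the same library, and ID2 had 15.8 to 49.2 TPM. Of 21 IRF, STAT and NF-kB genes 18 were expressed. IRF3, the factor activated by TBK1, had 95.9, 86.6, 105 and 119.5 TPM. STAT6, which answers IL-4, had 46.8 to 55.2 TPM and STAT5A, which answers GM-CSF and related cytokines, 25.4 to 37.8. NFKB2 and RELA, subunits of NF-kB, had 35.4 to 48.1 and 25.2 to 32.1 TPM, and IRF5, a factor of Toll-like receptor signalling, 24.4 to 32.1. IRF8, which favours monocytes over granulocytes, had 27.5, 31.5, 26.7 and 5.87 TPM, with tet-SLC7A2 library 2 apart from the other 3. NFKB1 had 5.43, 8.38, 13.4 and 19.2 TPM, lowest in tet-SLC7A1 library 1.

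HOX genes encode homeodomain factors in 4 clusters, and the 5′ members of the A cluster are a mark of many myeloid leukaemias. Of 39 genes 8 were expressed, 6 of 11 in cluster A and 2 of 9 in cluster C, against 0 of 10 in cluster B and 0 of 9 in cluster D. HOXA10 and HOXA11 stood highest with 31.9 to 44.2 and 26.2 to 33.7 TPM, and their ranges overlap. HOXA9 had 6.57 to 10.6 TPM and HOXA13 4.6 to 9.14, again with overlapping ranges. HOXA7 had 1.23 to 1.92 TPM. HOXC10 and HOXC6 had 3.39 to 10.2 and 3.34 to 4.55 TPM. Summed over cluster B the level did not pass 0.13 TPM, and over cluster D it did not pass 0.47 TPM, against 76.2 to 99.1 TPM for cluster A. Of the cofactors that bind DNA with HOX proteins, 7 of 11 were expressed. PBX2 had 29.2 to 30.9 TPM, the steadiest of them, and TGIF2 22.1 to 25.8 TPM. PBX3 had 2.43, 3.96, 3.3 and 3.64 TPM, lowest in tet-SLC7A1 library 1.

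**Figure D3:**
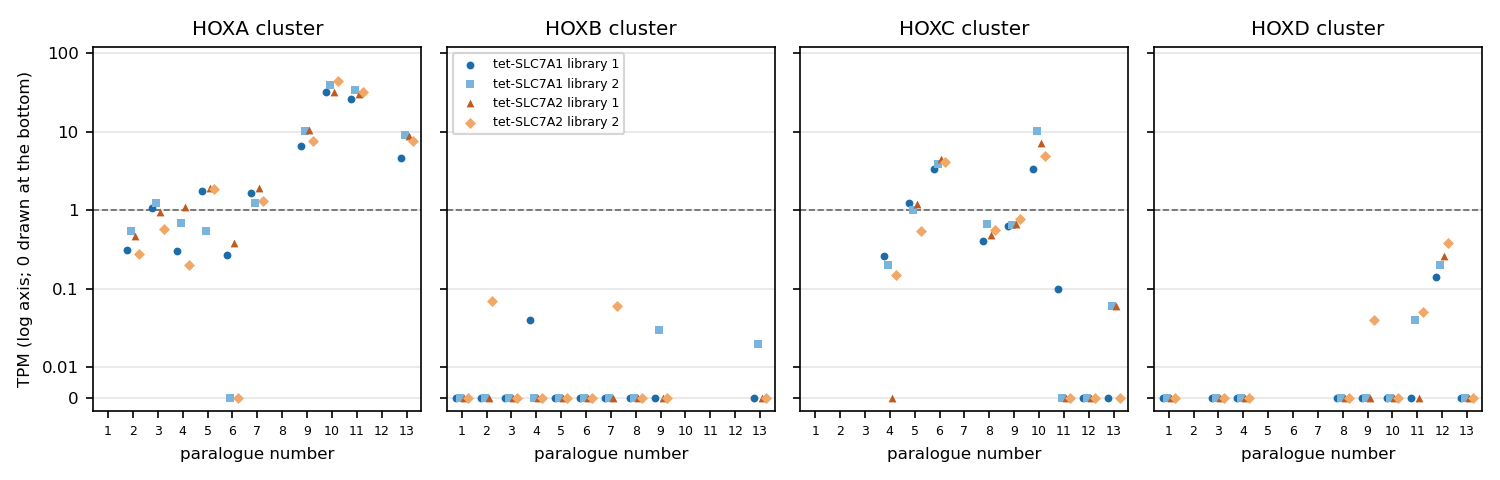
TPM of 38 of 39 HOX genes by cluster and paralogue number on a log axis, 1 point for each uninduced library, with 0 drawn at the lower edge and a dashed line at 1 TPM. HOXA9 to HOXA13 and HOXC10 stand above the line in all 4 libraries, and every gene of clusters B and D lies under it.

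Nuclear receptors, factors switched by steroids, lipids and vitamins, were expressed in 19 of 48 cases. NR1H2, a liver X receptor for oxysterols, had 29.4 to 33.1 TPM and ESRRA 24.4 to 43.1. PPARG, a receptor for fatty acids, had 11.4 to 26.2 TPM, lowest in tet-SLC7A2 library 2, and PPARD 9 to 11.7. The receptors for retinoic acid RARA and RARG had 20.6 to 26.3 and 7.69 to 14.1 TPM, and their partners RXRB and RXRA 20.5 to 25 and 8.92 to 15.5. VDR, the vitamin D receptor, had 5.36 to 7.69 TPM and NR3C1, the glucocorticoid receptor, 4.07 to 6.43. The orphan receptor NR2F6 had 17.9 to 29 TPM and THRA, a thyroid hormone receptor, 18.3 to 23.9. NR1H3, the other liver X receptor, had 6.3 to 8.52 TPM and NR4A1, an immediate early gene, 5.54 to 10.7. NR2C1, NR1D1, NR2C2, NR6A1 and NR1D2 had medians of 6.59, 3.33, 2.86, 1.75 and 1.1 TPM. The receptors for oestrogen and progesterone, ESR1 and PGR, were absent from all 4 files, as were THRB, RARB and RORA.

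**Figure D4:**
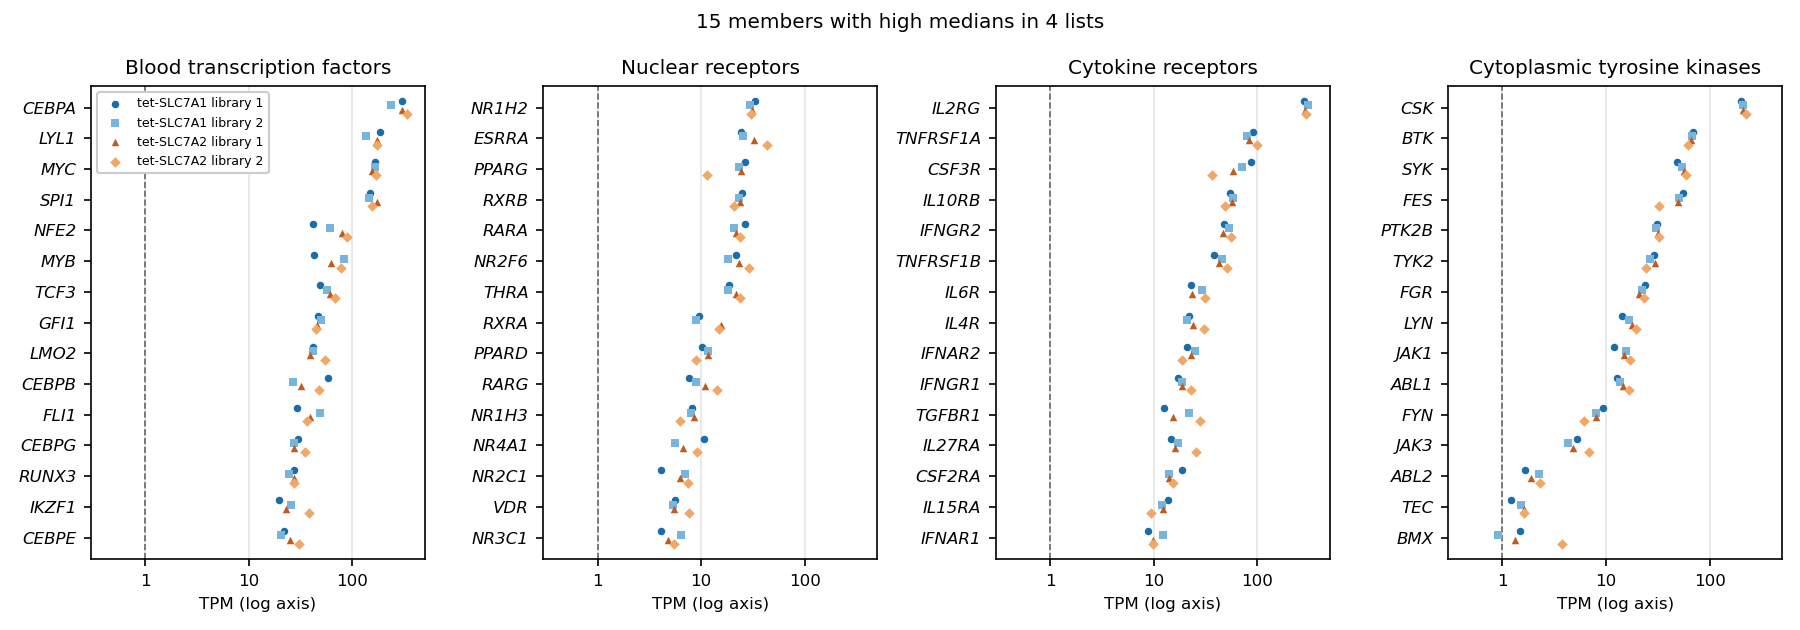
TPM of the 15 genes with the highest median among blood transcription factors, nuclear receptors, cytokine receptors and cytoplasmic tyrosine kinases on a log axis, 1 point for each uninduced library, with 1 kinase not drawn. CEBPA, NR1H2, IL2RG and CSK lead their panels, and the highest point among the nuclear receptors is ESRRA at 43.1 TPM in tet-SLC7A2 library 2.

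The series title concerns SLC7A1 and the answer of cells to cGAMP through STING, so the levels of this pathway were read from a list added after the data were seen. STING1, the receptor of cGAMP, had 78.6 to 89.3 TPM, CGAS, the enzyme that makes it, 1.84 to 2.97, and TBK1, the kinase after STING, 2.77 to 7.15. Of the 18 members of the list 13 were expressed, 1 was listed under 1 TPM and 4 were absent from all 4 files. SLC46A2, an importer of cyclic dinucleotides, and ENPP1, which degrades cGAMP outside cells, were among the absent, as were SLC46A3 and LRRC8E. LRRC8D had 18 to 22.7 TPM, LRRC8A 6.21 to 9.26 and LRRC8C 2.23 to 3.74, while LRRC8B did not pass 0.6. P2RX7 had 1.47 to 3.49 TPM and SLC46A1 1.74 to 1.88. The entry for the SLC7A1 gene itself had 11.5, 12.1, 9.89 and 13.3 TPM. Whether it took reads of the tagged SLC7A1 was not tested.

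The 4 libraries differed most in a limited set of genes. Of the 5237 genes at 10 TPM or more in all 4, 3636 had a highest value under 1.5 times the lowest, and 252, or 4.81%, had a highest value of 2 or more times the lowest. Of these 252, 173 were highest in tet-SLC7A2 library 2 and 49 in tet-SLC7A1 library 1, and 162 were lowest in tet-SLC7A1 library 1 and 54 in tet-SLC7A2 library 2. The widest spreads among genes with a median of 10 TPM or more were in H2AC18, CCL2, S100A9, PFKFB4, ALDOC, IGLL1, RSRP1, HSPA8, HSPH1 and IRF8. H2AC18, a histone gene, had 0 to 19.1 TPM, and its nearly identical copy H2AC19 had 0 to 15.5, so the reads of the pair may have been placed on either copy.

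PFKFB4, which sets the level of a glycolytic activator, had 6.18 to 52.4 TPM, and ALDOC, a brain-type aldolase, 23.5 to 160.2, both lowest in tet-SLC7A2 library 2. RSRP1 had 2.49, 13.7, 10.2 and 16 TPM, lowest in tet-SLC7A1 library 1. HSPH1, a chaperone that works with HSPA8, had 8.58 to 53.1 TPM, and the inducible HSPA1A 7.42 to 38.4. Each of the 3 chaperone genes was lowest in tet-SLC7A1 library 1 and highest in tet-SLC7A2 library 2. Over the 772 genes of all lists 338 were expressed, and 67 of the 338 had a spread of 2 or more times. The libraries with the widest differences belong to different lines and carry different numbers. Among the uninduced libraries, line, number and library therefore cannot be told apart. With doxycycline, in the same order of lines and numbers, HSPA8 had 266, 629, 739 and 1651 TPM and S100A9 18.2, 35.4, 46 and 132. Not every gene kept its order: H2AC18 had 14.8 TPM in tet-SLC7A2 library 2 with doxycycline against 0 without. The source of these differences was not tested.

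**Figure D5:**
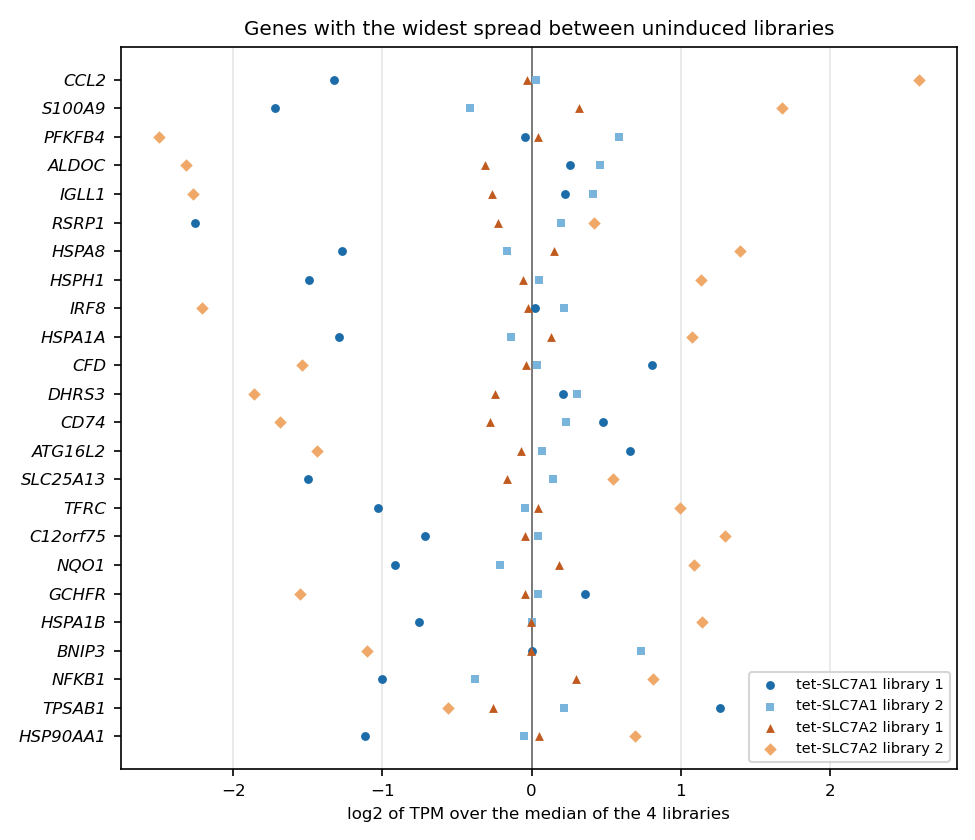
The 24 genes with the widest spread among those with a median of 10 TPM or more and no library at 0, as log2 of the TPM in each uninduced library over the median of the 4. Points of tet-SLC7A1 library 1 and tet-SLC7A2 library 2 lie at the ends for most genes, with the other 2 libraries between them.

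A silent gene in these files is not always a gene without transcripts. All 12 genes of RNA polymerase II, 31 of the proteasome, 8 of the chaperonin and 12 of the proteins of spliceosomal snRNPs were at 10.6 TPM or more in every library. This check was added after the data were seen. PRDX2, a peroxiredoxin found in nearly all cells, nevertheless had 0.41 to 1.12 TPM, HERC1, a large ubiquitin ligase, 0 to 1.34, and CD59 0.01 to 0.03. Loci without a symbol, assembled from the reads and numbered by the authors, held 6.56% to 7.08% of the counts, and whether reads of such genes were placed on them was not tested. For JAK2, IL6ST, HLA-DRA, CYBB and MPO the low values are therefore those of the entries in the files.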

How the data were processed

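RNA sequencing was used as the authors deposited it, with 1 table for each library, made from RNA selected for poly(A) tails and read in pairs, per the labels' protocols. Per the file headers each table gives an expected count from RSEM, FPKM, TPM and an effective gene length. The deposited TPM sums to about the same total in each library and was used for all levels, and the deposited expected counts were used for depth and for 1 ranking. The tools listed in the submitters' processing notes are RSEM 1.3.1, Bowtie2 2.3.4.3, HISAT and DESeq2 1.4.5, for the genome hg38. Whether counting used strand was not given in the sources used here.

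Of 15386 Entrez numbers in the 8 libraries 15340 matched a symbol in the RefSeq table of GRCh38.p14, and 15298 of these are protein coding. The 7264 assembled loci without a symbol enter only the totals. Tables were read with Python 3.11.15, pandas 2.3.3 and numpy 2.4.6, and figures were drawn with matplotlib 3.10.9. The main threshold was 1 TPM in all 4 libraries, the counting was tested on simulated data, and alternatives to the threshold, the unit, the gene set and the libraries are given in the closing section. Floors cover counting error only. Named genes were the 20 highest by median, the 5 markers, up to 6 of the highest members of each list, expressed genes of other lineages, expressed HOX genes and nuclear receptors, defining genes that were silent, and genes with a wide spread. Some genes that this rule names are not reported here, and 4 list members are not drawn in the figures. Other genes named, among them partners and chromosomal neighbours of these, were chosen after their values were seen, as were the lists said to be added. The libraries, the 37 lists and the rule were chosen with earlier results of these data known. Promoter sequences are from RefSeq (GRCh38.p14). A planned comparison of protein sequences was not run, since no protein table was used here.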

Additional observations from a re-analysis of the deposited data

How the results depend on the processing

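The number of expressed genes, 9554, was 10287 at 0.5 TPM, 8544 at 2 TPM, 10015 by the median of the 4 libraries, 9575 with TPM rescaled over Entrez genes, 10453 by 1 CPM of the expected counts and 9538 with an expected count of 10 as well. Without 1 library it was 9603 to 9690. The expressed genes of the lists, 338, were 301 to 370 under the same settings. Counts of single lists stayed within 1.5 times in 355 of 370 cases. The 15 others were in lists with few expressed members or near the threshold: stem and progenitor genes were 8 at 0.5 TPM and by CPM, and pattern recognition receptors were 6 at 2 TPM. The median share of TPM in the 100 highest entries, 46.5%, was 25.0% by expected counts and 30.8% without ribosomal protein genes. It was 47.8% over Entrez genes and 45.5% to 47.6% without 1 library. The lowest correlation between libraries, 0.975, was 0.966 over genes at 10 TPM or more and 0.972 with log2(TPM + 0.1). Without 1 library it was 0.975 to 0.987, highest without tet-SLC7A2 library 2. The median of MPO, 0.335 TPM, was 0.22 TPM with either tet-SLC7A2 library left out and 0.45 TPM with either tet-SLC7A1 library left out, and that of CSF1R, 0.18 TPM, was 0.28 and 0.08 TPM in turn. Among list genes with a median of 1 TPM or more, leaving out tet-SLC7A2 library 1 or library 2 moved the medians of NCF1, S100A8 and TTR by over 1.5 times, and no other median moved so far. No paired analysis was possible because the values are levels in uninduced libraries alone and come from no test. Depth limits statements on silent genes to the floor of 3 counts, and TPM gives short genes a high place.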

Other observations

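Cancer-testis genes, whose proteins are normally limited to the germ line and the placenta, were read from a list of 18 added after the data were seen. The list had 3 expressed members, 5 listed under 1 TPM in all 4 libraries and 10 absent from all 4 files. XAGE1A had 574, 622, 614 and 662 TPM, and XAGE1B had 1044, 1149, 1092 and 1621 TPM, in the order of libraries used above. These 2 entries are nearly identical copies on the X chromosome with median effective lengths of 219 and 198 bases, so the division of reads between them is uncertain. ACTL8, an actin-like gene, had 1.81, 2.9, 6.1 and 33.3 TPM, with tet-SLC7A2 library 2 apart. PRAME, a frequent antigen of myeloid leukaemia, did not pass 0.26 TPM, and CTAG1B, MAGEA3, MAGEC1 and SSX1 were absent from all 4 files.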
